A study of Homo sapiens with 6 samples.

Results

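The nuclear pore and nuclear transport genes were examined in SKOV3 cells after knockdown of EIF5A2. The list held every protein-coding gene in the table whose symbol is NUP, IPO or KPNA followed by a number, together with named transport receptors (KPNB1, TNPO1 to TNPO3, the exportins XPO1, XPO4, XPO6, XPO7, XPOT and CSE1L), pore proteins (TPR, NDC1, AHCTF1, SEH1L, POM121, RANBP2) and the genes of the Ran cycle (RAN, RCC1, RANGAP1, RANBP1). It came to 56 of the 58825 genes listed, chosen by symbol, with earlier results of these data known. SKOV3 is an established human ovarian carcinoma line. The cells were transfected with a negative control siRNA (NC, 3 libraries) or with an siRNA against EIF5A2 (si-EIF5A2, 3 libraries), and RNA was taken 48 h later. All libraries come from the same line, which carried no other stated alteration, and the labels name 1 siRNA treatment per group. EIF5A2 encodes a paralog of the translation factor EIF5A. Its CPM (estimated counts of the gene scaled to the TMM size of the library) was 27.8, 29.8 and 29.9 with NC and 2.76, 4.04 and 4.27 with si-EIF5A2, and its log2 fold change was -2.98 ± 0.18 (SE, edgeR quasi-likelihood test, adjusted p = 1.6e-05), so the labels and the targeted gene went together.

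The nuclear pore is a large protein channel that spans the nuclear envelope. Its scaffold is built from outer rings (the Y complex) and an inner ring, which are held in the envelope by membrane proteins. A mesh of nucleoporins rich in phenylalanine and glycine fills the channel, filaments reach into the cytoplasm and a basket reaches into the nucleus. Cargo crosses bound to receptors of the importin beta family. Importin alpha proteins bind the classical nuclear localization signal and hand the cargo to importin beta (KPNB1). Direction comes from the GTPase Ran, which is loaded with GTP on chromatin by RCC1 and made to hydrolyse it in the cytoplasm by RANGAP1 with the help of RANBP1 and RANBP2. Many of these proteins have further duties in mitosis, when the pores of vertebrate cells come apart and are built anew.

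The RefSeq table held a promoter for 48 of the 56 genes, and the 4 genes with the largest falls are shown because the results below turn on them. The sequences are the 250 bases before the transcription start in GRCh38.p14, written along the gene. Capitals mark the CCAAT box (CCAAT) and the cell cycle genes homology region, or CHR (TTTGAA or TTCGAA), on either strand. TTCGAA reads the same on both strands, and the motifs were counted separately. Both are known from promoters of genes that peak late in the cell cycle.
NUP210 promoter, chr3:13420323-13420572, minus strand: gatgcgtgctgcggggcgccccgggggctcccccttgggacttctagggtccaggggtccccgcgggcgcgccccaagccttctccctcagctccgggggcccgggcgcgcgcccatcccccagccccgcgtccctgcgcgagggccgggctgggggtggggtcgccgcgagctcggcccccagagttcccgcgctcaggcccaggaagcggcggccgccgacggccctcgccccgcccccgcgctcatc
IPO9 promoter, chr1:201828907-201829156, plus strand: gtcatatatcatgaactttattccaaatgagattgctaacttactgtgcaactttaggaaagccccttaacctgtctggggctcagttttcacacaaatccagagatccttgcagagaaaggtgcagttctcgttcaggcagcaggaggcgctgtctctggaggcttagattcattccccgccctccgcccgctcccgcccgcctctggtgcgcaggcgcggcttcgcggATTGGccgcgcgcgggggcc
NDC1 promoter, chr1:53838297-53838546, minus strand: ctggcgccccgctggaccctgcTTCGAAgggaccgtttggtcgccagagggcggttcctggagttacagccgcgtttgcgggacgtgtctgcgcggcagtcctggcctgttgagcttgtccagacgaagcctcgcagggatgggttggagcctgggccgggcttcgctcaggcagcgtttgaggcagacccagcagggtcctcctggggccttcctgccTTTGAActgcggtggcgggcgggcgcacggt
KPNA2 promoter, chr17:68035485-68035734, plus strand: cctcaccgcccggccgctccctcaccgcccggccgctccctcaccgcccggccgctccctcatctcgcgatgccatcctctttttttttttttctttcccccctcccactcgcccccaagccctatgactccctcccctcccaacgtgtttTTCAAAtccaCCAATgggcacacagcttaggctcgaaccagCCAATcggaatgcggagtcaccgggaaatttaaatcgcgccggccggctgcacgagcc

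The KPNA2 promoter held a CHR match whose first base lay 99 bases before the start and CCAAT boxes at 89 and 58 bases. NDC1 held CHR matches at 228 and 31 bases and no CCAAT box. IPO9 held a CCAAT box at 20 bases, and NUP210 held no match to either. CCAAT stood in 43.8% of the 48 promoters, compared with 35.0% of the 10377 protein-coding genes tested and 33.0% of all 27305 promoters of this length. A CHR match stood in 20.8%, compared with 9.62% and 14.6%. The E2F motifs searched (TTTCCCGC, TTTCGCGC, TTTGCCGC and TTTGGCGC, both strands) stood in 1 of the 48, that of IPO11, compared with 4.49% and 2.79%. Of the 6 genes called lower that had a promoter in the table, 4 held a CCAAT box and 3 a CHR match (KPNA2, NDC1 and NUP205). Of the 41 tested genes not called lower, 16 held a CCAAT box and 7 a CHR match. A match of letters is not a bound site.

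Library totals ran from 46900204 to 74142267 estimated counts, and libraries of the same group were more alike (r across genes 0.964 to 0.974 on log2 CPM) than libraries of different groups (0.929 to 0.938). KRT8, KRT18, PAX8 and ERBB2, which SKOV3 cells are known to express, stood at 42.1 to 659 CPM, while KRT19, EPCAM and WT1 were at 1.15 to 3.85 CPM and MUC16 was at 0 in every library. Of the 8 markers of other cell types, PTPRC was at 0 in every library, and their summed level was 69.5 to 90.0 CPM in NC and 30.7 to 59.4 CPM in si-EIF5A2. CDH5 fell from 28.3 ± 2.13 to 0.833 ± 0.234 CPM (SD, n = 3, log2 fold change -5.08, edgeR adjusted p = 5.63e-06), and CD68, which made up most of the sum in si-EIF5A2, was at 46.3 ± 9.57 and 39.1 ± 14.3 CPM (-0.24, adjusted p = 0.555). Fewer cells of a kind and less RNA per cell cannot be told apart in bulk RNA.

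After EIF5A2 knockdown a small set of transport genes was called lower, and most of the machinery was not called in either direction. The genes of that set kept from 40.5% (NUP210) to 66.4% (RANBP1) of their NC mean. Of the 54 genes that passed the filter on low counts, 9 were called, meaning that they changed by over 1.5 times with an adjusted p below 0.05. That share was 16.7%, compared with 24.6% of all 16208 genes tested. A total of 8 were called lower, or 14.8% compared with 13.6% of all genes, and 1 was called higher, against 11.1% of all genes. The share of called genes was therefore not above that of the whole table in this fit. The role lists below hold few genes, so their counts of called genes say little about a role. The genes called lower were the membrane anchors NUP210 and NDC1, the import receptors KPNA2 and IPO9, the exportin XPO7, the scaffold protein NUP205, NUP214 of the cytoplasmic side and RANBP1. The gene called higher was the importin alpha KPNA5. KPNA7 (22 estimated counts in 1 si-EIF5A2 library and 0 in the other libraries) and NUP210L (6 in 1 NC library and 0 elsewhere) were too low to test.

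A further 16 genes had an adjusted p under 0.05 with a fold change under 1.5, of which 10 were lower and 6 higher. At this limit alone 25 of the 54 genes passed, compared with 36.9% of all genes. The median log2 fold change was -0.15 (quartiles -0.43 and 0.097), compared with -0.010 over all genes tested (quartiles -0.50 and 0.41), and 68.5% of the members lay below 0, compared with 50.7% of all genes. The 3 libraries of each group did not overlap for 28 of the 54 genes, 21 lower and 7 higher, compared with 51.2% of all genes. These genes were abundant, with a median of 69.5 CPM in NC compared with 12.9 CPM over all genes tested, and their spread was small: the median coefficient of variation was 8.37% in NC and 7.74% in si-EIF5A2, compared with 12.5% and 12.9% over all genes.

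**Figure D1:**
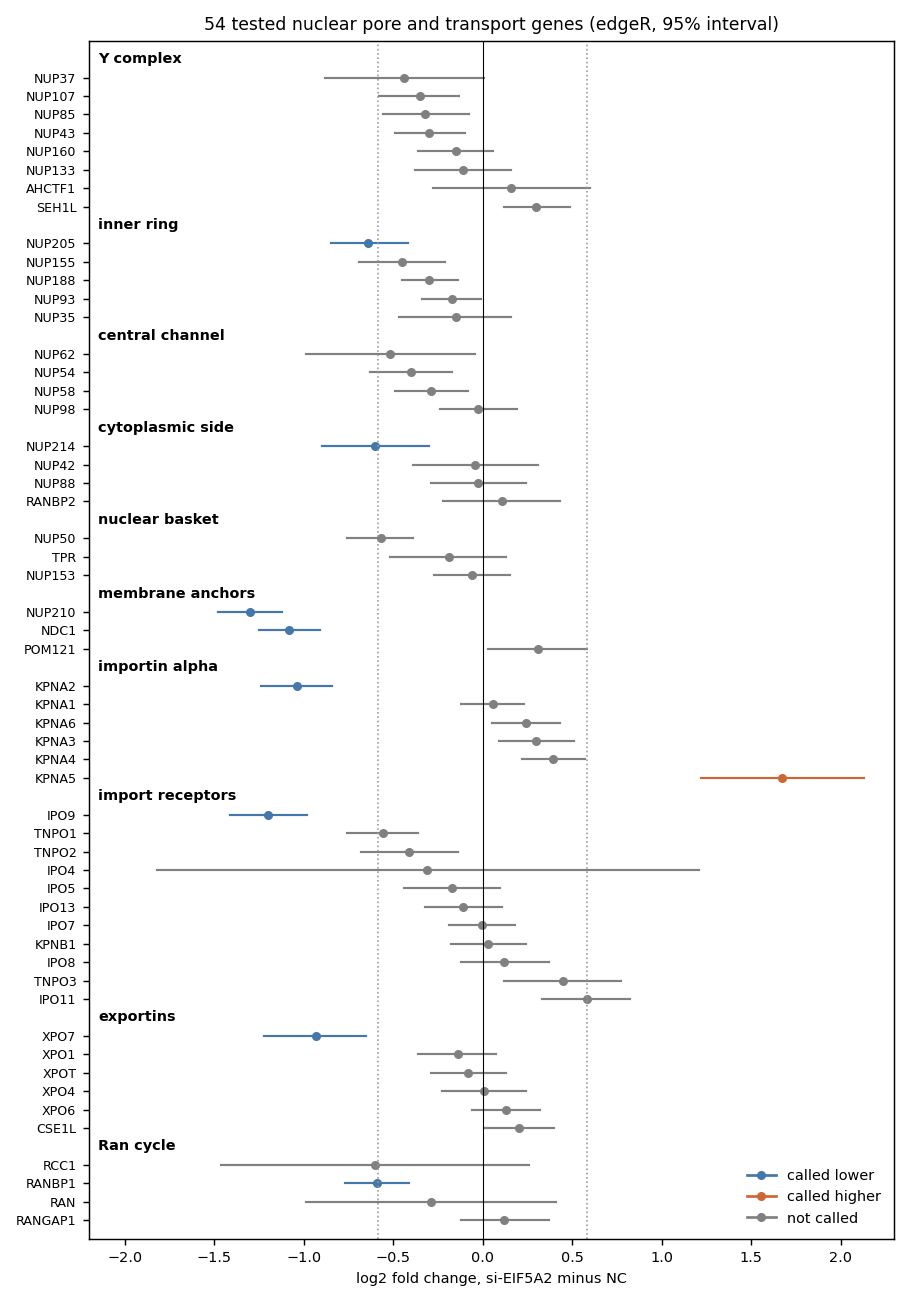
Log2 fold change (si-EIF5A2 minus NC, x axis) of the 54 tested genes, grouped by role. Points are the edgeR estimates, lines their 95% intervals and dotted lines the fold change limit of 1.5. The 4 largest falls, NUP210, IPO9, NDC1 and KPNA2, lie below -1.0, and KPNA5 alone lies above 1.0.

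Of the scaffold genes of the pore on the list, 5 in the inner ring and 8 in the Y complex, 1 was called, NUP205. Of all genes tested 24.6% were called. All 5 inner ring genes had estimates below 0, as did 50.7% of all genes tested, and no overlap between the groups, as had 51.2% of all genes, and their median log2 fold change was -0.30. NUP205, a large scaffold protein of this ring, fell from 47.7, 45.1 and 49.9 CPM in NC to 32.6, 28.4 and 30.7 CPM in si-EIF5A2 (log2 fold change -0.64 ± 0.092 SE, adjusted p = 0.00112). Every si-EIF5A2 library lay below every NC library. NUP188, the paralog of NUP205, was at -0.30 (adjusted p = 0.0101) and NUP155 at -0.45 (adjusted p = 0.0113), both under the fold limit, and the smallest estimate, that of NUP35, was -0.15 (adjusted p = 0.433).

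SEC13, a Y complex gene outside the list, was called higher (log2 fold change 0.89, given below). Of the 8 Y complex genes on the list 0 were called, compared with 24.6% of all genes tested. NUP98, whose precursor also gives the Y complex protein NUP96, was counted with the channel. Of the 8 estimates 6 were below 0, as were 50.7% of all genes, and the median was -0.22. The lowest was NUP37 at -0.44 (adjusted p = 0.117), whose NC libraries were spread (34.0 to 55.2 CPM). The estimate for SEH1L, which also belongs to a complex that regulates mTOR signalling at the lysosome, was 0.30 (adjusted p = 0.0206) and that of NUP107 was -0.35 (adjusted p = 0.0235), so members of the same ring stood on either side of 0. AHCTF1 (ELYS), which brings the Y complex to chromatin after mitosis, had an estimate of 0.16 with a 95% interval from -0.28 to 0.60. A pseudogene copy held up to 14.7% of the counts of AHCTF1 and its copy together, so its value is less certain.

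Among the listed genes of the channel and the peripheral structures, 1 was called, compared with 24.6% of all genes tested. Genes of the pathway outside the list are given further below. Of the 4 channel nucleoporins, 0 were called, although all estimates were below 0, from -0.025 for NUP98 to -0.52 for NUP62. NUP62 was at 77.8 to 110 CPM in NC and 55.9 to 86.5 CPM in si-EIF5A2, so the groups overlapped. It was called when NC replicate 3 (-0.67) or si-EIF5A2 replicate 1 (-0.73) was left out. It shares exon bases with IL4I1 on the same strand and with ATF5 on the other strand. On the cytoplasmic side, NUP214 fell from 67.9, 70.6 and 64.0 CPM to 36.4, 51.4 and 45.8 CPM (-0.60 ± 0.13, adjusted p = 0.00789). The groups did not overlap, but the estimate lay near the fold limit and the call did not hold when NC replicate 2 (-0.57) or si-EIF5A2 replicate 1 (-0.48) was left out. NUP88, which binds NUP214, was at -0.025 (95% interval -0.29 to 0.24) and RANBP2, the largest protein of the cytoplasmic filaments, at 0.11 (-0.22 to 0.43).

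In the nuclear basket the estimates ran from -0.061 for NUP153 to -0.57 for NUP50, with TPR, the basket's main filament protein, at -0.19 (95% interval -0.52 to 0.13). NUP50, which helps importin alpha release its cargo, had an adjusted p of 0.000974 and a fold change just under the limit, and it passed that limit in 5 of the 13 alternative fits (-0.59 to -0.62): with upper-quartile scaling, without the filter, and when NC replicate 1, NC replicate 3 or si-EIF5A2 replicate 1 was left out.

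The largest falls in the pore were those of its membrane proteins. NUP210, a glycoprotein with most of its length in the lumen of the nuclear envelope, stood at 104, 110 and 98.9 CPM in NC and at 42.8, 42.9 and 41.1 CPM in si-EIF5A2. The si-EIF5A2 libraries kept 40.5% of the NC mean (log2 fold change -1.30 ± 0.078, adjusted p = 1.52e-05), with a wide gap between the groups. NDC1, which spans the membrane and is needed for pore assembly, fell from 84.6, 88.4 and 88.1 CPM to 42.0, 41.3 and 40.2 CPM, or 47.3% of the NC mean (-1.08 ± 0.073, adjusted p = 2.65e-05). Its libraries were tight in both groups. POM121, the third membrane protein tested, was at 69.0, 69.3 and 58.6 CPM in NC and 86.6, 68.9 and 88.0 CPM in si-EIF5A2, an estimate of 0.31 with an adjusted p of 0.0818. POM121C, a near-identical copy, was at 0.34 (adjusted p = 0.0181), and the pair summed, which was computed after the values were seen, came to 0.32 (adjusted p = 0.0343). The 95% interval of POM121 alone (0.030 to 0.58) lay apart from those of NUP210 and NDC1.

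**Figure D2:**
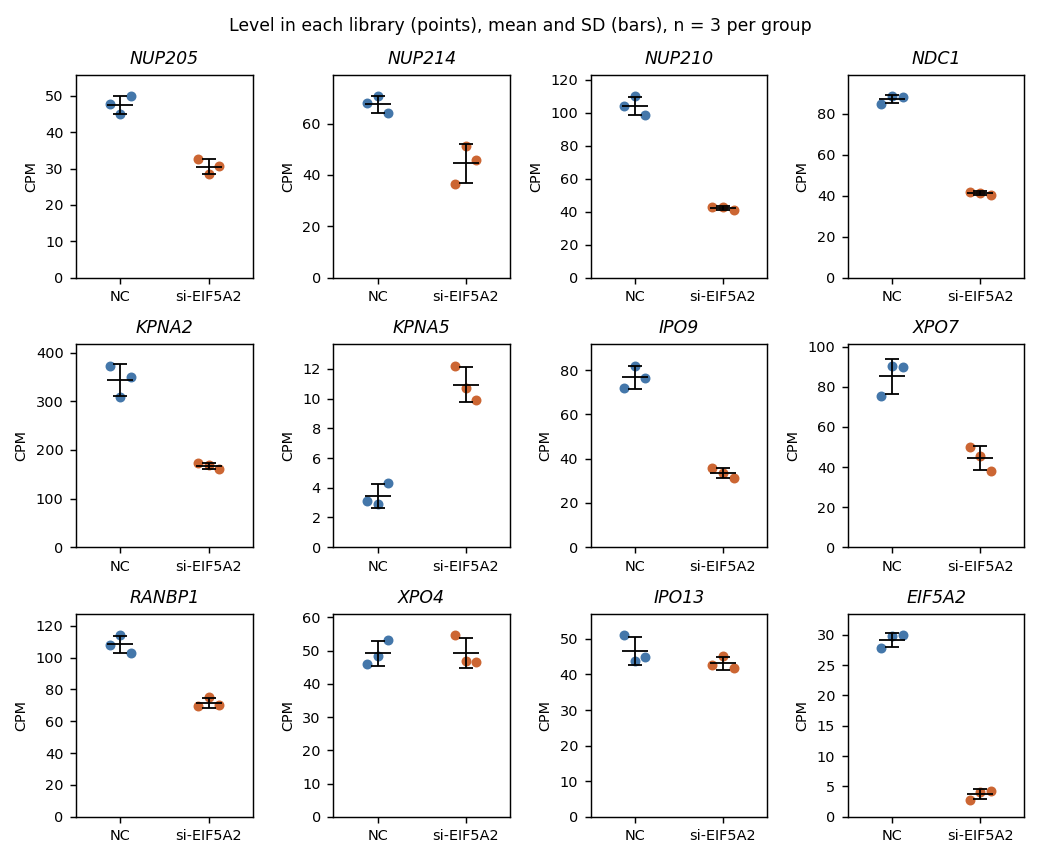
CPM (y axis, from 0) in each NC and si-EIF5A2 library of the 9 called genes and of XPO4, IPO13 and EIF5A2. Points are libraries, horizontal bars the mean and whiskers the SD (n = 3). The groups are apart for the 9 called genes and for EIF5A2, and they overlap for XPO4 and IPO13.

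Of the 6 importin alpha genes tested, 1 was called lower and 1 higher, compared with 13.6% and 11.1% of all genes. KPNA2 (importin alpha 1), the most abundant member per exon kilobase in these cells and the family member known to follow proliferation, fell from 373, 309 and 350 CPM to 173, 169 and 161 CPM (-1.04 ± 0.086, adjusted p = 7.59e-05). All si-EIF5A2 libraries lay far below the NC libraries, at 48.7% of their mean. KPNA5, the least abundant tested member, rose from 3.08, 2.88 and 4.34 CPM to 12.2, 10.7 and 9.90 CPM, which is 3.18-fold (1.67 ± 0.20, adjusted p = 0.000396). It stayed the lowest of the 6 in CPM in both groups.

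The other importin alphas lay at or above their NC level. KPNA4 was at 228, 214 and 230 CPM in NC and 305, 271 and 307 CPM in si-EIF5A2 (0.39 ± 0.077, adjusted p = 0.00496). KPNA3, its close paralog, was at 71.0, 80.3 and 83.3 CPM and then 102, 90.7 and 96.0 CPM (0.30 ± 0.089, adjusted p = 0.0317). The groups did not overlap for either gene, but both fold changes were under the limit. KPNA6 was at 59.9, 62.1 and 63.8 CPM and then 78.6, 69.3 and 71.8 CPM (0.24 ± 0.081, adjusted p = 0.0491). KPNA1 was at 67.6, 72.0 and 74.6 CPM and then 73.6, 72.6 and 76.6 CPM, with a 95% interval of the log2 fold change from -0.12 to 0.23. Its groups overlapped.

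Expressed per exon kilobase, so that the genes can be set against each other, KPNA2 made up 67.8%, 63.0% and 64.7% of the summed importin alpha level with NC and 42.2%, 44.2% and 41.1% with si-EIF5A2. KPNA4 went from 14.2% ± 0.365 to 24.9% ± 1.23 (SD, n = 3) and KPNA3 from 10.5% ± 1.25 to 17.1% ± 0.405. KPNA5 stayed under 1% of the total, at 0.179% and 0.761%. The groups did not overlap for any of the 6 shares. With 3 libraries against 3, the exact permutation test (2-sided) cannot give a p below 0.10, and it gave 0.10 for each share. Shares add to a fixed total, so the fall of the KPNA2 share raises those of the other genes. The exon lengths are the union of all annotated exons, which need not be the transcripts present.

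**Figure D3:**
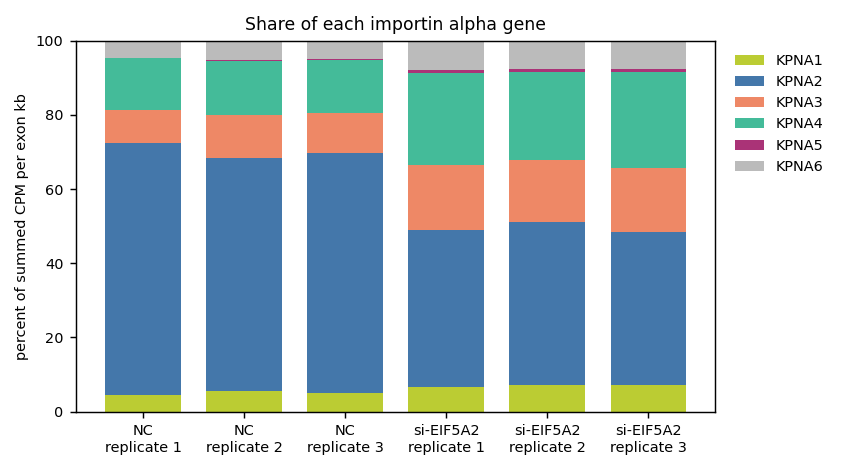
Share of each tested importin alpha gene (colours) in the summed CPM per exon kilobase of the family (y axis, percent) in each library (x axis). KPNA2 takes 63.0% to 67.8% in the NC libraries and 41.1% to 44.2% in the si-EIF5A2 libraries.

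Among importin beta and the other import receptors, 1 of 11 was called, compared with 24.6% of all genes tested. IPO9, an importer of histones and other basic cargo, fell from 71.9, 81.9 and 76.2 CPM to 35.7, 33.6 and 31.1 CPM (-1.20 ± 0.092, adjusted p = 4.89e-05), with 43.7% of the NC mean left and no overlap. KPNB1, the partner of every importin alpha, was at 0.030 with a 95% interval from -0.18 to 0.24, so a change as large as that of KPNA2 lay outside its interval. IPO7 was at -0.0048 (-0.19 to 0.18) and IPO5, a receptor for ribosomal proteins and histones, at -0.17 (-0.44 to 0.094).

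None of the 3 transportins was called, compared with 24.6% of all genes tested. TNPO1 (transportin 1), which imports many RNA-binding proteins, was at -0.56 ± 0.088 (adjusted p = 0.00168), just under the fold limit, which it passed without the filter (-0.59) and when NC replicate 1 (-0.63) or si-EIF5A2 replicate 1 (-0.61) was left out. TNPO2, its paralog, was at -0.41 (adjusted p = 0.0254). TNPO3, which imports splicing factors rich in serine and arginine, was at 0.45 (adjusted p = 0.0386). IPO11 was at 0.58 ± 0.11 (adjusted p = 0.00383), also just under the limit, and passed it when NC replicate 2 (0.60), NC replicate 3 (0.63) or si-EIF5A2 replicate 3 (0.60) was left out. Its exons share bases with KIF2A on the same strand. IPO13, which carries cargo in both directions, was at 51.0, 43.8 and 44.8 CPM in NC and 42.7, 45.2 and 41.7 CPM in si-EIF5A2. The groups overlapped, and the estimate was -0.11 with a 95% interval from -0.32 to 0.11 (adjusted p = 0.412).

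IPO4 was the least reproducible member, and it is described because of that spread, after its values were seen. It was at 97.3, 47.9 and 42.9 CPM in NC and at 59.4, 72.7 and 20.0 CPM in si-EIF5A2 (-0.31, 95% interval -1.82 to 1.21). A protein-coding gene without a standard symbol, ENSG00000259522, shares 69.3% of the exon bases of IPO4 on the same strand. That gene was at 41.9, 86.2 and 80.0 CPM and then 51.3, 47.2 and 95.2 CPM. In NC replicate 1 IPO4 was at its highest and that gene at its lowest, and in si-EIF5A2 replicate 3 the order was the reverse. The sum of both was far steadier, with 139, 134 and 123 CPM in NC and 111, 120 and 115 CPM in si-EIF5A2, and its coefficient of variation was 6.32% and 4.0%, compared with 48.0% and 54.1% for IPO4 alone. The log2 fold change of the sum was -0.20 (adjusted p = 0.0822).

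**Figure D4:**
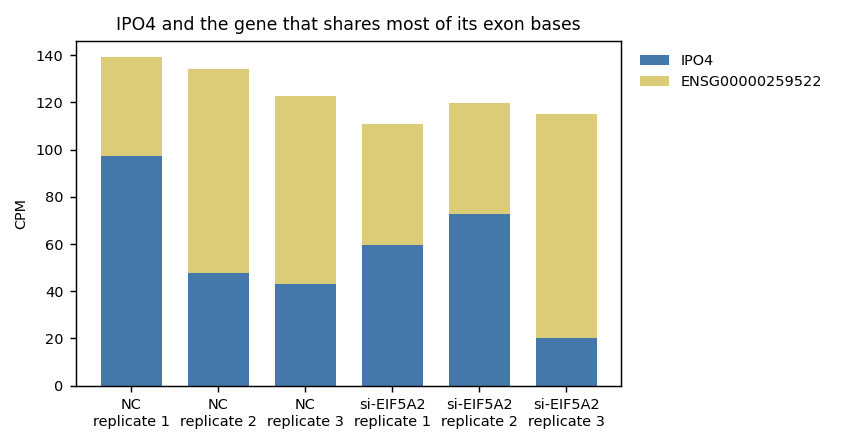
CPM (y axis, from 0) of IPO4 and of ENSG00000259522, the gene that shares most of its exon bases, stacked for each library (x axis). IPO4 takes between 17.3% and 69.9% of the sum, while the sum itself lies between 111 and 139 CPM.

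Of the 6 exportins, 1 was called, compared with 24.6% of all genes tested. XPO7, an exportin with a broad range of cargo, fell from 75.3, 90.5 and 89.8 CPM to 50.0, 45.6 and 38.2 CPM (-0.93 ± 0.12, adjusted p = 0.000706), or 52.3% of the NC mean, and the groups did not overlap. XPO4, the receptor that carries EIF5A out of the nucleus, was at 45.9, 48.4 and 53.2 CPM in NC and 54.6, 46.9 and 46.7 CPM in si-EIF5A2. The groups overlapped, and the log2 fold change was 0.0055 with a 95% interval from -0.23 to 0.24 (adjusted p = 0.976). Its sign changed with the settings, and a change past the fold limit lay outside the interval. EIF5A itself was at 490, 494 and 387 CPM and then 488, 581 and 527 CPM (0.22, 95% interval -0.043 to 0.48, adjusted p = 0.174).

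The estimate for XPO1 (CRM1), the main protein exporter, was -0.14 (95% interval -0.36 to 0.074). XPOT, the exporter of tRNA, was at -0.082 (-0.29 to 0.13). CSE1L, which returns importin alpha to the cytoplasm, was at 0.20 (0.0070 to 0.40) with an adjusted p of 0.0998, and its interval lay above the whole interval of KPNA2 (-1.24 to -0.84).

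In the Ran cycle 1 of 4 genes was called, near the share of 24.6% over all genes tested. RANBP1, a cytoplasmic cofactor of Ran, fell from 108, 114 and 103 CPM to 69.4, 75.4 and 70.3 CPM (-0.59 ± 0.077, adjusted p = 0.000645). The groups did not overlap, although part of its exons lies opposite TRMT2A, and the estimate sat at the fold limit, and the call did not hold with RLE scaling (-0.58) or when NC replicate 2 (-0.55) or si-EIF5A2 replicate 1 or 3 (-0.58 for each) was left out. RAN was the most abundant member, at 905, 689 and 984 CPM in NC and 859, 445 and 806 CPM in si-EIF5A2 (-0.29, 95% interval -0.99 to 0.41, adjusted p = 0.488). The groups overlapped, with a wide spread in each, and 9 pseudogene copies held up to 2.97% of the counts of RAN and its copies together.

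RCC1, the exchange factor of Ran, was at 69.8, 82.7 and 116 CPM and then 53.9, 85.1 and 38.6 CPM. Its groups overlapped and its interval was wide (-0.60, 95% interval -1.46 to 0.26). It was called when si-EIF5A2 replicate 2 was left out (-0.95, adjusted p = 0.0476), and it shares exon bases with the noncoding gene SNHG3 on the same strand. RANGAP1, which switches Ran off, was at 371, 416 and 316 CPM and then 417, 403 and 382 CPM (0.12, 95% interval -0.12 to 0.37).

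Of 23 other genes of the pathway 22 could be tested, and 3 were called lower and 1 higher. The called share was 18.2%, compared with 24.6% of all genes tested, and the share called lower was 13.6% in both. The median log2 fold change of the 22 genes was -0.12. The pore protein AAAS (aladin), which binds NDC1, was at 76.8, 71.3 and 65.1 CPM in NC and 38.5, 35.0 and 38.3 CPM in si-EIF5A2 (-0.93 ± 0.093, adjusted p = 0.000181). SNUPN, the import adaptor of spliceosomal snRNPs, was at -0.77 (adjusted p = 0.0237), and DDX19A, a helicase of mRNA export, at -0.63 (adjusted p = 0.00282). The call of SNUPN did not hold when NC replicate 3, si-EIF5A2 replicate 2 or si-EIF5A2 replicate 3 was left out, with estimates from -0.92 to -0.54 over the 6 libraries left out in turn. That of DDX19A did not hold when NC replicate 3 was left out (-0.55). SEC13, a Y complex protein that also coats vesicles leaving the endoplasmic reticulum, rose from 92.3, 78.5 and 90.8 CPM to 156, 158 and 171 CPM (0.89 ± 0.087, adjusted p = 0.000166), with no overlap between the groups.

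Cell cycle marker genes were also lower in si-EIF5A2. All 6 G2/M markers (MKI67, TOP2A, CCNB1, CDK1, TPX2 and AURKA) were called lower, with a summed level of 925 to 1040 CPM in NC and 145 to 159 CPM in si-EIF5A2 and a median log2 fold change of -2.75. All 6 S phase markers (PCNA, MCM2, MCM3, MCM5, TYMS and GINS2) were also called lower, from 358 to 403 CPM to 157 to 170 CPM, with a median of -1.42. The largest fall among the transport genes, that of NUP210 (-1.30), was smaller than the median of either list. It lay within the range of the S phase markers (-1.72 to -0.82) and outside that of the G2/M markers (-3.06 to -2.04). The part of the cell cycle change in the falls of the transport genes was not tested.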

How the data were processed

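RNA of SKOV3 cells, 3 NC and 3 si-EIF5A2 libraries, was sequenced as paired-end mRNA libraries. StringTie and ballgown were used by the authors to quantify transcripts, and the deposited table holds estimated counts, as whole numbers that were not normalized. The aligner, genome build and annotation of the human data are not given in the sources used here. The submitters' processing notes name Bowtie 0.12.2 and the mouse builds mm8 and mm9, while the identifiers are those of human genes. Low values pile up at multiples of 3.74 to 3.82, so a fragment appears to be worth several counts. StringTie divides fragments between overlapping transcripts, and whether strand was used is not stated, so overlapping genes are less certain. A total of 12 members overlap another gene's exons on the same strand and 22 on the opposite strand. The other gene reached 100 counts in a library for only 4 members on the same strand and 9 on the opposite strand.

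All 6 libraries were fitted with edgeR 4.0.16 (R 4.3.3; filterByExpr, TMM, robust quasi-likelihood test, condition only) and p-values were adjusted by Benjamini-Hochberg over 16208 genes. Called genes had an adjusted p below 0.05 and changed by over 1.5 times. SE was taken from the estimate and the F statistic (estimate over the root of F). On simulated data with 200 changed genes edgeR recovered 68.5% of them (90.1% of 4-fold and 50.5% of 2-fold changes) and 14.4% of its calls were false. DESeq2 recovered 80.5%, and 28.4% of its calls were false. Changes under 2-fold were not simulated, and 3992 genes were called in the real data. These rates therefore need not hold for the real calls. DESeq2 1.42.0, other scalings, filters, thresholds and leaving out each library were alternatives. Symbols came from a names table and exon overlaps from GENCODE release 29. Positions of the promoters are those of RefSeq.

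Values per library were planned for members called with a log2 fold change of 0.8 or more, importin alpha and Ran cycle genes, XPO4 and IPO13, and other members were given by range with examples. Those of NUP205, NUP214, POM121, IPO4 and genes outside the list were added after they were seen. The members and all lists were chosen with earlier results of these data known. The labels do not say that libraries came from separate cultures, so p-values measure the spread between these libraries, which may be technical.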

Additional observations from a re-analysis of the deposited data

How the results depend on the processing

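Of the 9 called genes, 7 kept their call in all 13 alternative fits, and NUP214 and RANBP1 lost it in some, while 5 of the 45 uncalled genes gained a call in at least 1 (NUP50, TNPO1, IPO11, NUP62 and RCC1). DESeq2, RLE and upper-quartile scaling, both filters and counts divided by the step gave 8 to 11 called genes. The limits in the study's methods (a change over 2 times with an unadjusted p below 0.05) gave 5 called of 54, 4 lower. Over all genes 14.6% passed these limits. An adjusted p under 0.05 at any fold change gave 25 called, 18 lower and 7 higher, compared with 36.9% of all genes. Leaving out each library in turn gave 8 to 12 called, 6 to 10 lower, 1 to 2 higher and a median log2 fold change of -0.19 to -0.13. In these fits 21.8% to 23.3% of all genes were called. The second gene called higher, without NC replicate 2, NC replicate 3 or si-EIF5A2 replicate 3, was IPO11 each time. Estimates near 0 changed sign, none of them called: IPO7 with RLE (0.0029), and XPO4 with upper-quartile scaling (-0.0072), no filter (-0.025), at least 10 counts in every library (-0.0051) and counts divided by the step (-0.00092). Leaving out libraries moved NUP98 from -0.089 to 0.050, NUP88 from -0.12 to 0.061, NUP42 from -0.19 to 0.040, RANBP2 from -0.060 to 0.23, KPNB1 from -0.026 to 0.093, IPO4 from -0.66 to 0.16, IPO7 from -0.065 to 0.031 and XPO4 from -0.080 to 0.057. The causes were not tested.

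With a replicate block, 9 genes were called, 8 lower and 1 higher, with a median of -0.15, and 23.0% of all genes were called. Libraries with the same number did not deviate together (correlations -0.0244, 0.00522 and -0.00269, and 0 of 6 libraries correlated best with their own number), so the numbers were not read as pairs. Depth did not limit most members, whose levels were far above the 0.155 to 0.239 CPM that 3 fragments are worth; such limits cover counting error only.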
